A study of Mus musculus with 6 samples.

Results

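The report covers 47 imprinted genes of the mouse, taken by symbol from a list, in RNA sequenced from XEN and ES cells. Of these, 46 had a row in the deposited tables, out of 17710 genes in any table. Nesp had no row of its own, and the RefSeq gene table gives that name as an older one of the Gnas row. By textbook knowledge of the mouse, 23 are known for expression mainly from the paternal allele and 23 from the maternal allele. Many of them, mostly maternal ones, are known for it in some tissues only, and are called paternally or maternally expressed here all the same. Gnas has transcripts of both kinds, and for L3mbtl1 the paternal expression is known from human. XEN cells, an extraembryonic endoderm line type, were of strain ICR and grew in RPMI1640 medium with FBS, Glut and BME, as the labels write them. ES cells, embryonic stem cells, were of strain 129/Ola and grew on gelatin in N2B27-2iLIF medium. There were 3 libraries a group (A, B, C), made from total RNA and sequenced on the BGISEQ-500. Nothing in the labels ties them to separate cultures, and the p-values therefore rest on the spread between libraries, which may be technical. Cell type, strain and medium change together between the groups and cannot be told apart.

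Imprinted genes are expressed from a single parental allele because the germ line marks control regions with DNA methylation, and the mark is kept after fertilization. They lie in clusters, in which a control region acts on several genes, often through a non-coding RNA or an insulator, and many of them act on growth, placenta formation and metabolism. Some keep the imprint in most tissues and others show it in the placenta or brain only. The counts sum both alleles, so which allele gave the RNA was not measured, and neither gain nor loss of an imprint can be read from them.

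The libraries held 21134720 to 22375875 expected counts in XEN cells and 20675311 to 22037793 in ES cells. At this depth 3 counts in a library came to 0.13 to 0.149 CPM, that is, counts scaled to a common library size. The labelled cell types were clear from their markers: the 8 XEN markers summed to 11150 to 11930 CPM in XEN libraries and 9.59 to 10.2 CPM in ES libraries, and the 8 ES markers to 161 to 181 CPM in XEN libraries and 5646 to 5797 CPM in ES libraries. Klf4 alone gave 158.5 to 179 CPM of the ES marker sum in XEN libraries, and the other 7 were each under 0.5 CPM there. In a bulk sample, fewer cells of a type and less RNA per cell cannot be told apart.

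Imprinted genes were split between the cell types, and a few of them carried most of the reads. Of the 46 genes with a row, 38 had enough counts to be tested with the edgeR quasi-likelihood test, with Benjamini-Hochberg adjustment over all 13581 genes at 0.05. Of the 38, 16 were higher in XEN cells, where 42.0% of all tested genes were called in that direction, 19 were lower, against 46.7% of all genes, and 3 did not pass. Thus 92.1% of the tested imprinted genes were called, close to the 88.7% of all genes, and being called sets none of them apart. By the test against a change of 2-fold (glmTreat), 13 were higher and 10 lower, against 19.3% and 23.4% of all tested genes. The median log2 fold change of XEN over ES was -0.15 for the 38 genes, also with genes at 0 counts set at their bound, and -0.07 for all tested genes. The median size of the change, without its sign, was 1.95 on the log2 scale, and 0.92 for all tested genes. In 35 of the 38 genes the 3 XEN libraries lay beyond the 3 ES libraries, as in 89.4% of all tested genes.

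Paternally and maternally expressed genes each went both ways. Of 19 tested genes with paternal expression, 9 rose and 9 fell in XEN cells, and all 9 that rose passed the test against 2-fold, as did 5 that fell. Of 18 with maternal expression, 6 rose and 10 fell, and 3 and 5 of these passed against 2-fold. Of the paternal genes 94.7% were called and 73.7% passed against 2-fold, and of the maternal genes 88.9% and 44.4%. For all tested genes these shares were 88.7% and 42.7%. The median log2 fold change was -0.04 for the paternal and -0.69 for the maternal genes. Most of the tested maternal genes are known for imprinting in some tissues only, and most of the paternal ones for imprinting in most embryonic tissues. The kind of gene and the breadth of its imprint are therefore mixed in these shares. A test of the difference between the kinds was not made, since the genes of a cluster are not independent. The 8 genes under the filter on low counts had at most 23 counts over the libraries of a group.

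**Figure D1:**
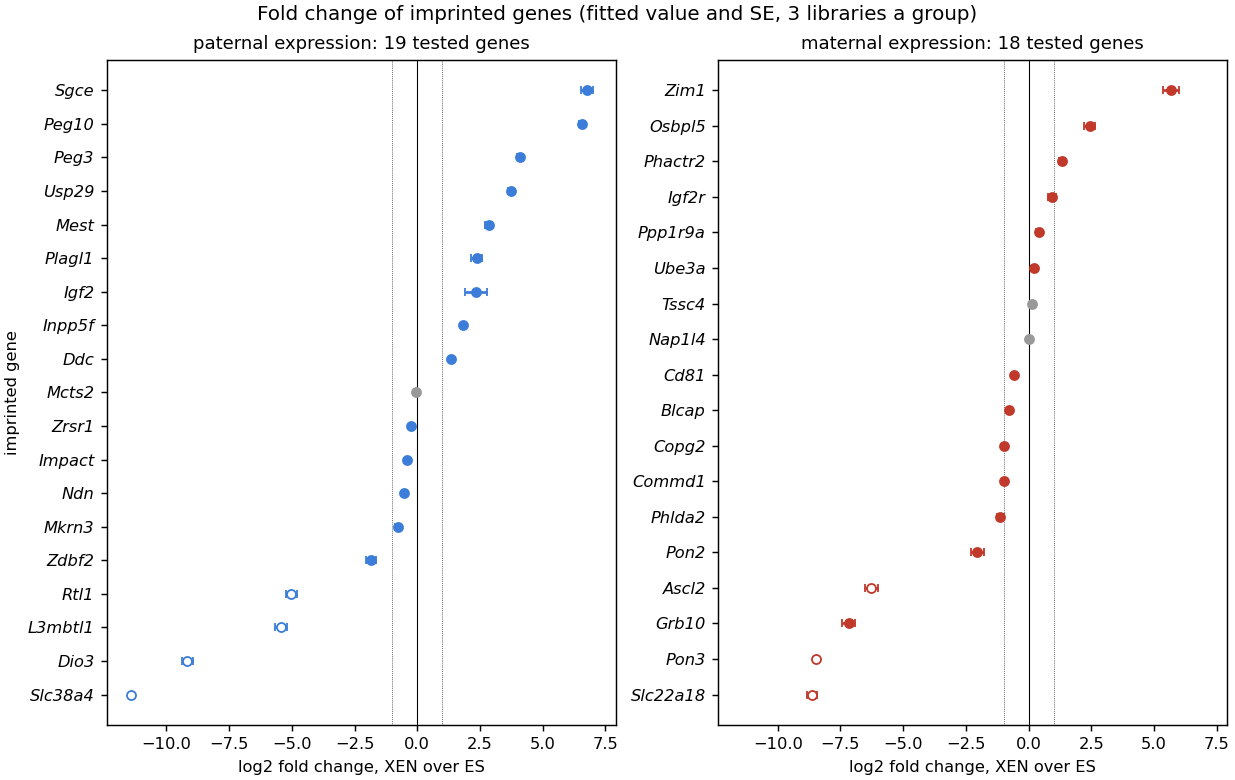
The horizontal axis is the log2 fold change of XEN over ES for each tested imprinted gene, with paternal expression on the left and maternal on the right. Points are fitted values. Bars are SEs of the difference in mean log2 CPM with a prior count of 2, over 3 libraries a group, and not SEs of the fitted values. For genes at 0 counts in XEN libraries, such as Pon3 and Slc38a4, the bar leaves out counting error there, so its small size is not precision. Grey points did not pass the test, and dotted lines mark a 2-fold change. Open points have 0 to 3 counts over the XEN libraries, so that their fitted size is not a bound. Of the paternal genes 9 rose and 9 fell, and of the maternal genes 6 rose and 10 fell. Of all tested genes 42.0% were called higher and 46.7% lower.

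Imprinted genes took 0.408% ± 0.0146 of all counts in XEN libraries and 0.158% ± 0.0005 in ES libraries (SD, n = 3). Genes with paternal expression took 0.194% ± 0.0177 in XEN libraries and 0.0374% ± 0.0006 in ES libraries, and genes with maternal expression took 0.0835% ± 0.0025 in XEN libraries and 0.108% ± 0.0005 in ES libraries. The totals rest on few genes. In XEN libraries Gnas gave 32.1% ± 2.49 of the counts of imprinted genes, Peg3 21.3% ± 1.53 and Peg10 15.6% ± 1.52. In ES libraries Cd81 gave 26.8% ± 0.771, Impact 11.01% ± 0.135 and Nap1l4 10.6% ± 0.206. On the authors' FPKM scale, which divides by transcript length, the order was Gnas, Cd81, Peg10 and Peg3 in XEN cells, at 787 ± 34.8, 181 ± 6.39, 98.8 ± 13.1 and 95.0 ± 10.3 FPKM. Peg10 and Peg3 did not differ beyond their spread. In ES cells the order was Cd81 at 296 ± 8.40 FPKM, then Nap1l4 at 75.4 ± 1.38 and Gnas at 74.0 ± 2.10, which lay within their spread of each other, and Commd1 at 52.0 ± 0.952.

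**Figure D2:**
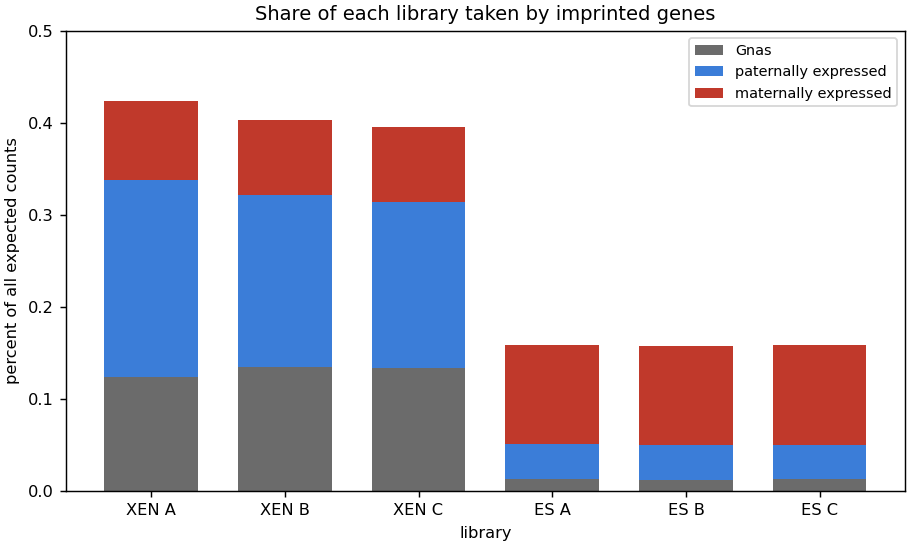
Bars give the percent of all expected counts of each library that imprinted genes took, stacked as Gnas, paternally expressed and maternally expressed genes. The 3 XEN libraries stand at 0.396% to 0.424% in all and the 3 ES libraries at 0.158%, and the paternal part is larger in every XEN library.

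The Peg3 cluster on chromosome 7 was the only cluster with more than 2 tested members in which every member rose, although its members are imprinted on opposite alleles. Peg3, a zinc finger factor with paternal expression, had 1026, 847 and 858 CPM in XEN libraries, against 58.4, 53.4 and 48.6 CPM in ES libraries. All XEN libraries lay far above all ES libraries, with XEN A the highest, and the log2 fold change was 4.09 ± 0.12 (SE; adjusted p = 1.86e-07). Usp29, a ubiquitin protease gene with paternal expression that is read from the opposite strand, had 18.8, 19.4 and 19.5 CPM in XEN libraries, against 1.245, 1.70 and 1.39 CPM in ES libraries, and rose by 3.72 ± 0.13 (adjusted p = 2.35e-17). Zim1, a zinc finger gene with maternal expression, had 6.63, 5.73 and 6.55 CPM in XEN libraries and 8 counts in all over the ES libraries, and rose by 5.67 ± 0.31 (adjusted p = 2.78e-14). The nearest tested genes outside did not share the rise: Zfp28 and Zfp78 on one side fell by 0.43 and 1.22, and Aurkc and Zfp954 on the other side fell as well.

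The promoter windows of Peg3 and Zim1 are printed because these genes rose together, although they are known for imprinting on opposite alleles. Windows are from RefSeq on GRCm38.p6, reach from 250 bases before to 50 after the gene's start, and are written 5′ to 3′ on the gene's strand. Capitals mark TGCCGC or its reverse complement GCGGCA, the letters recognized by the imprint protector ZFP57 when methylated. The Peg3 window, chr7:6730370-6730669 on the minus strand, holds no match and 13 CpG, and shares 263 bases with the window of Usp29. The Zim1 window, chr7:6696383-6696682 on the minus strand, holds 1 match and 20 CpG.
Peg3: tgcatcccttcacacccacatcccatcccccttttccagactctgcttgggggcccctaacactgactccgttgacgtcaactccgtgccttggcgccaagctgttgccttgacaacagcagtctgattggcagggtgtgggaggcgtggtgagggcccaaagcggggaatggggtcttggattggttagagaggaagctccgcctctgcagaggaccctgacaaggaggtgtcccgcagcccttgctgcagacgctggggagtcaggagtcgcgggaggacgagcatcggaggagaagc
Zim1: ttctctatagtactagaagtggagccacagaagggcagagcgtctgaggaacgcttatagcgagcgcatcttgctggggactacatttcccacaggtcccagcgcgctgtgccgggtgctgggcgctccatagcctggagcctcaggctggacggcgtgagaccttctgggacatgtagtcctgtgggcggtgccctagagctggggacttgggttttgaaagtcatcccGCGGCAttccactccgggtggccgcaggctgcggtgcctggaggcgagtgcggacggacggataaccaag

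In the cluster of Peg10 and Sgce on chromosome 6 both paternally expressed genes rose. Peg10, a gene derived from a retrotransposon and needed for the placenta, had 768, 654 and 589 CPM in XEN libraries, against 7.10, 7.24 and 6.998 CPM in ES libraries. Sgce, the epsilon-sarcoglycan gene next to it, had 99.6, 109.5 and 100.5 CPM in XEN libraries, against 0.645, 1.09 and 1.09 CPM in ES libraries. Both have paternal expression, their libraries did not overlap, and they had the largest rises of all imprinted genes tested, with log2 fold changes of 6.56 ± 0.11 for Peg10 (adjusted p = 5.67e-08) and 6.76 ± 0.23 for Sgce (adjusted p = 3.29e-23).

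The maternally expressed genes of that cluster went both ways. Ppp1r9a, which codes for the actin-binding protein neurabin, rose by 0.40 ± 0.11, with 8.41 ± 0.480 CPM in XEN libraries and 6.404 ± 0.814 CPM in ES libraries (SD, n = 3; adjusted p = 0.00303). It did not pass with upper-quartile scaling (adjusted p = 0.0505) or on FPKM with limma-trend (adjusted p = 0.164). The paraoxonase gene Pon2 fell by 2.04, with 0.763 ± 0.244 CPM in XEN libraries and 3.16 ± 0.363 CPM in ES libraries (adjusted p = 4.14e-08). Its relative Pon3 had 0 counts in every XEN library and 2.03, 2.05 and 2.00 CPM in ES libraries, so that it was at least 42.4-fold lower in XEN cells, against a floor of 3 counts over the group (adjusted p = 2.21e-10). Asb4, a ubiquitin ligase adaptor gene, and Calcr, the calcitonin receptor gene, were not tested, with 1 and 0 counts over the XEN libraries and 12 and 9 over the ES libraries. Among the nearest tested genes that are not members, Casd1 and Bet1 beside Sgce rose by 1.71 and 1.10, and Pdk4 and Slc25a13 beside Asb4 fell. Intervals, floors and bounds cover counting error only.

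**Figure D3:**
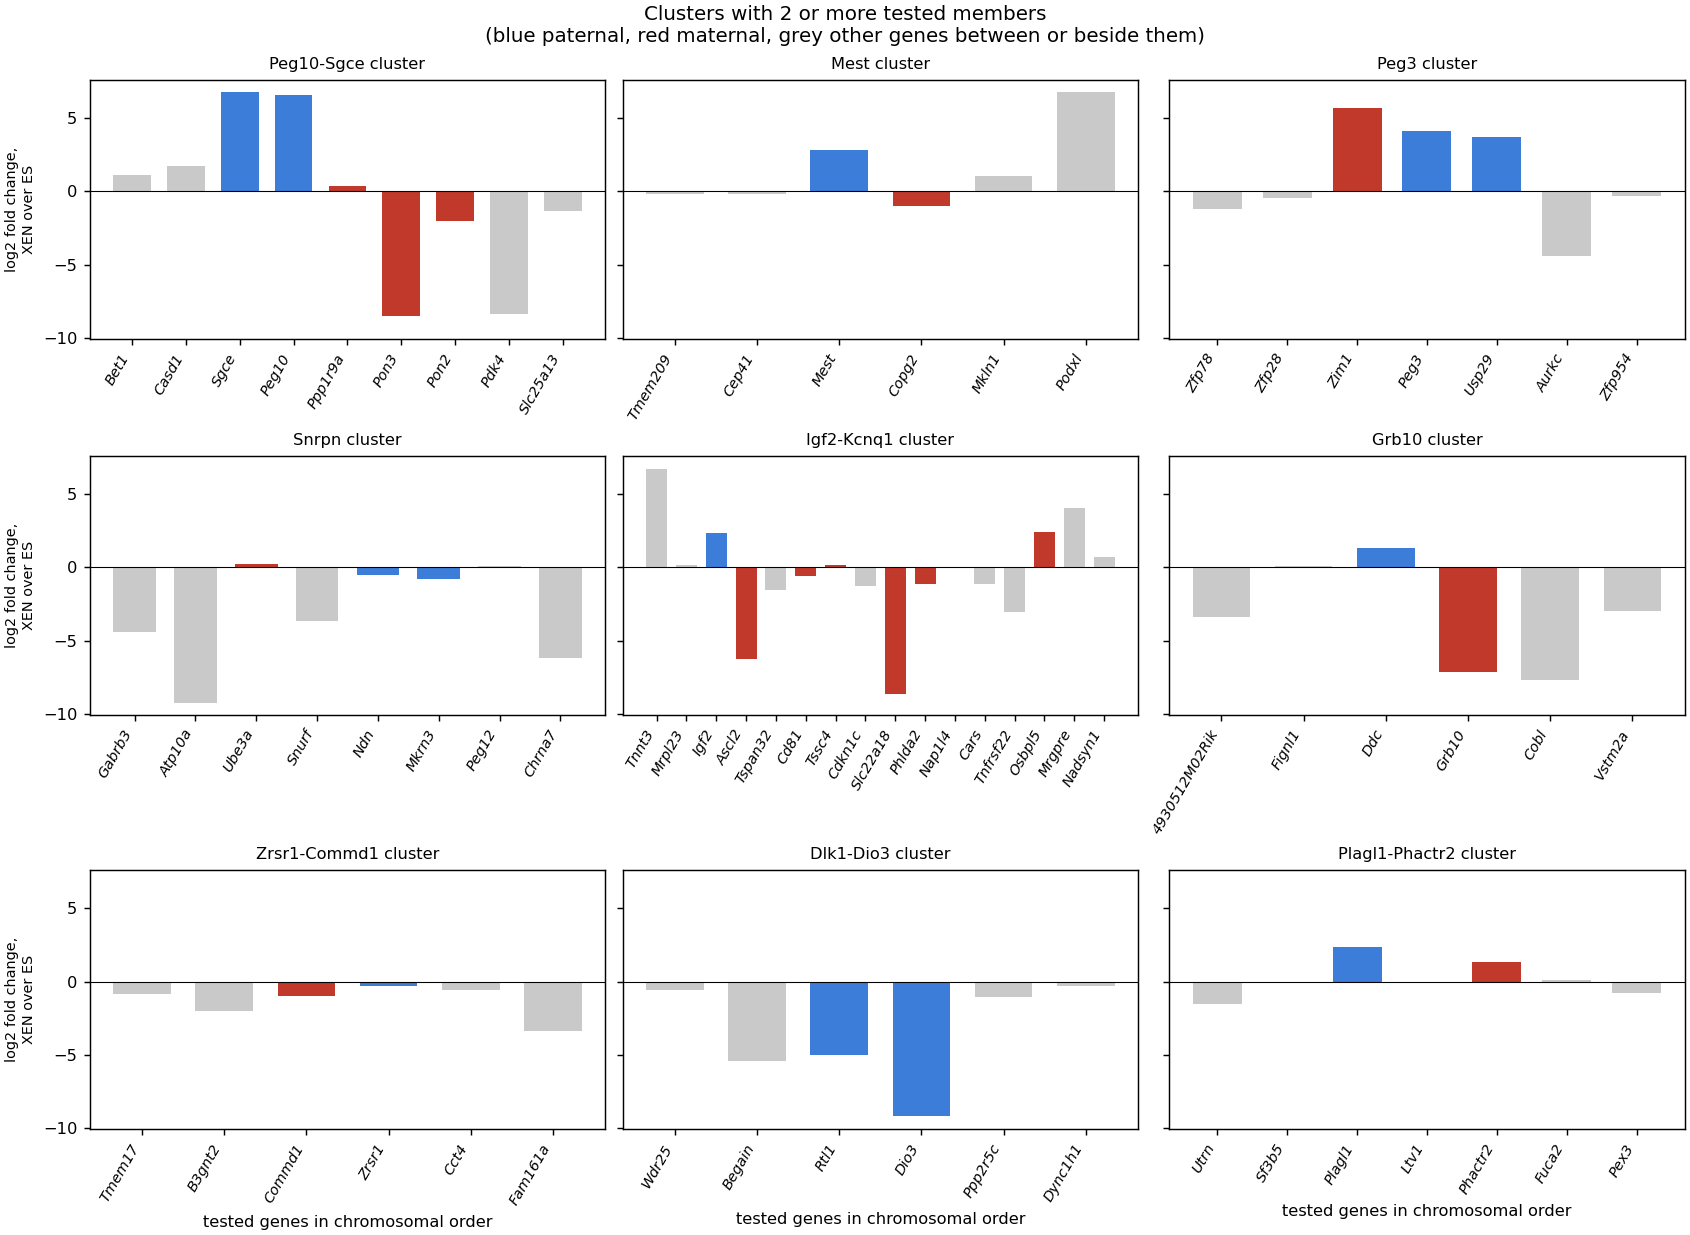
Bars give the log2 fold change of XEN over ES for tested genes in chromosomal order, in the 9 clusters with at least 2 tested imprinted genes; blue bars are paternal, red bars maternal and grey bars other genes between or beside them. All members rise in the Peg3 and Plagl1-Phactr2 clusters, the tested members of Zrsr1-Commd1 and Dlk1-Dio3 fall, and the others hold members in both directions. Bars for genes with 0 to 3 counts in a group, such as Pon3 and Slc22a18, have a fitted size that is not a bound.

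Gnas, whose main product is the stimulatory G protein alpha subunit, had the most reads of all imprinted genes in XEN cells. It had 1306, 1405 and 1402 CPM in XEN libraries, against 121, 117 and 123 CPM in ES libraries, a log2 fold change of 3.51 ± 0.04 (adjusted p = 2.67e-24). The groups lay far apart and the libraries of each group close together. The row pools 11 transcripts, among them forms from promoters that are imprinted in opposite ways, and which of them rose was not measured. The nearest tested genes were also called: Nelfcd and Ctsz rose by 0.81 and 3.81, Stx16 rose by 0.66 and Npepl1 fell by 1.33.

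Mest, a hydrolase family gene with paternal expression, and its neighbour Copg2, a coatomer subunit gene with maternal expression in the mouse, went opposite ways. Mest had 8.37, 8.62 and 6.505 CPM in XEN libraries, against 1.01, 1.18 and 1.04 CPM in ES libraries, a rise of 2.86 ± 0.14 (adjusted p = 1.25e-12). Copg2 had 41.5, 43.3 and 43.05 CPM in XEN libraries, against 85.5, 81.9 and 85.5 CPM in ES libraries, and fell by 0.98 (adjusted p = 8.68e-15). The genes overlap, and neither had a whole-number count in any of the 6 libraries, as happens where RSEM divides reads between transcripts. A Mest window, chr6:30737800-30738099 on the plus strand, holds 2 matches to the ZFP57 letters and 17 CpG, and is shown because, with another Mest window that starts 3 bases on, it has the most matches among the genes that rose.
Mest: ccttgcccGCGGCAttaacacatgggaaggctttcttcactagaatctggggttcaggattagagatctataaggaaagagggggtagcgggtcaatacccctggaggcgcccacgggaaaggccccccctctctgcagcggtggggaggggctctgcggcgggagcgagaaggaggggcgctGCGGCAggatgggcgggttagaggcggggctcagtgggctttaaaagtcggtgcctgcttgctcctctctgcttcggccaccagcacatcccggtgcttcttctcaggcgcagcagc

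Plagl1, a zinc finger factor with paternal expression that limits growth and regulates other imprinted genes, rose with Phactr2, a phosphatase and actin regulator gene that is maternally expressed in placenta. Plagl1 had 14.85, 11.2 and 13.65 CPM in XEN libraries, against 2.77, 2.96 and 1.96 CPM in ES libraries, a rise of 2.37 ± 0.22 (adjusted p = 1.87e-11). Phactr2 had 36.05, 38.8 and 44.1 CPM in XEN libraries, against 16.7, 16.3 and 14.2 CPM in ES libraries, a rise of 1.33 ± 0.11 (adjusted p = 2.91e-11). In both, all XEN libraries were above all ES libraries. Ltv1, which lies between them, had a log2 fold change of -0.06 and did not pass, although it passed as lower with upper-quartile scaling, with library size alone and on FPKM. The Plagl1 window, chr10:13090582-13090881 on the plus strand, holds 1 match and 26 CpG, and is shown as the promoter of the imprinted regulator that rose.
Plagl1: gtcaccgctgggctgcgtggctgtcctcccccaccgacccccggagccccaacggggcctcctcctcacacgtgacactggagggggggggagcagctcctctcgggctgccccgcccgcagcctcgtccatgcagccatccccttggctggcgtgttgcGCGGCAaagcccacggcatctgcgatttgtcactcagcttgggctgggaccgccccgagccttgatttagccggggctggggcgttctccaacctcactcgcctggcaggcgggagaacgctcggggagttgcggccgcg

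The ligand Igf2 and its clearing receptor Igf2r both rose, the ligand at a low level. Igf2, the paternally expressed insulin-like growth factor 2 gene, had 24, 29 and 28 counts in XEN libraries, against 2, 10 and 5 counts in ES libraries. It rose by 2.33 ± 0.45 (adjusted p = 5.45e-06) but reached only 1.29 ± 0.142 CPM in XEN cells, against 0.248 ± 0.174 CPM in ES cells. Igf2r, the maternally expressed receptor that clears IGF2 and carries lysosomal enzymes, had 189.8, 138 and 154 CPM in XEN libraries, against 90.4, 86.1 and 75.3 CPM in ES libraries. It rose by 0.94 ± 0.16 (adjusted p = 0.003445), and its coefficient of variation, 16.4% in XEN and 9.30% in ES libraries, was the highest among imprinted genes of at least 10 CPM in each group. Slc22a3, a cation transporter gene of the same cluster with maternal expression in placenta, had 1 and 0 counts over the XEN and ES libraries.

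Grb10, an adaptor that restrains insulin and IGF receptor signalling and is maternally expressed outside neurons, had 0.611, 0.373 and 0.298 CPM in XEN libraries, against 63.1, 61.0 and 63.7 CPM in ES libraries. It fell by 7.17 on the log2 scale (adjusted p = 1.22e-22), to a level set by 27 counts over the XEN libraries. Ddc, its neighbour, which codes for the decarboxylase of dopamine and serotonin synthesis and is paternally expressed in embryonic heart, had 61.05, 61.9 and 55.9 CPM in XEN libraries, against 23.97, 24.2 and 23.1 CPM in ES libraries. It rose by 1.33 ± 0.05 (adjusted p = 1.75e-15). Cobl, which follows Grb10, fell by 7.71, with 1.69 CPM in XEN and 356 CPM in ES cells, and Fignl1, beyond Ddc, did not pass. The Grb10 window with the match, chr11:12037371-12037670 on the minus strand, holds 45 CpG and 1 match, and is shown as a CpG-rich promoter of a gene nearly off in XEN cells.
Grb10: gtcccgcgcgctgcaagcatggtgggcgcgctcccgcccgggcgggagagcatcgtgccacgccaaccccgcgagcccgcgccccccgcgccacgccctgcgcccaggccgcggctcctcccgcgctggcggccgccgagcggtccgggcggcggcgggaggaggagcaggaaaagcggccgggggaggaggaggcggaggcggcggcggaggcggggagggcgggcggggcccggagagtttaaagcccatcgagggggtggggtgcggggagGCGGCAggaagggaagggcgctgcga

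Of the 12 genes listed as partners of these members (IGF and insulin receptors, binding proteins, substrates and IGF2 mRNA-binding proteins), 8 rose and 3 fell, and 91.7% were called where 88.7% of all tested genes were. The receptor gene Igf1r rose by 1.13, with 47.2 CPM in XEN and 21.6 CPM in ES cells, and the insulin receptor gene Insr by 1.69. Igf2bp1 and Igf2bp2, whose proteins bind Igf2 mRNA, rose by 0.49 and 1.49, and Igf2bp3 did not pass, with 263 CPM in XEN and 261 CPM in ES cells, although it passed as lower with upper-quartile scaling, with library size alone and on FPKM. Igfbp4 rose by 6.02 and the substrate gene Irs1 by 1.90, while Igfbp2 fell by 4.46 and Igfbp3, another binding protein gene, had 1 count over the XEN libraries and 9.01 CPM in ES cells.

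In the cluster of Igf2 and Kcnq1 the maternally expressed genes did not move together. Slc22a18, a transporter gene, had 1 count over the XEN libraries, against 8.39, 8.15 and 9.22 CPM in ES libraries, a ratio of ES to XEN of 540.0 with a 95% counting interval of 96.5 to 21370 (Clopper-Pearson; adjusted p = 8.17e-16). Ascl2, a helix-loop-helix factor of trophoblast, had 1 count over the XEN libraries, against 1.34, 2.05 and 1.61 CPM in ES libraries, a ratio of ES to XEN of 105 with an interval of 18.5 to 4185 (adjusted p = 1.66e-09). Both were nearly off in XEN cells, and Slc22a18 was at 6.32 FPKM in ES cells, near the middle of the genes listed there.

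Other genes of this cluster changed less or rose. Phlda2, which restrains placental growth, fell by 1.12, with 3.64 ± 0.222 CPM in XEN and 7.92 ± 1.08 CPM in ES libraries (adjusted p = 8.65e-08). Cd81, a tetraspanin gene, had 267, 280.2 and 264 CPM in XEN libraries, against 391.5, 409 and 415 CPM in ES libraries, and fell by 0.58 (adjusted p = 1.02e-11). Osbpl5, an oxysterol-binding protein gene, rose by 2.44 ± 0.22, with 5.14 ± 0.553 CPM in XEN and 0.951 ± 0.252 CPM in ES libraries (adjusted p = 1.72e-10). Tssc4 had 23.5, 22.5 and 21.4 CPM in XEN libraries, against 19.8, 19.1 and 22.3 CPM in ES libraries, and did not pass (log2 fold change 0.14, adjusted p = 0.0811); without ES C it passed (adjusted p = 0.0209). Nap1l4, a nucleosome assembly gene, had 159, 159.3 and 160.1 CPM in XEN libraries, against 156, 161.5 and 161.4 CPM in ES libraries (adjusted p = 0.960). The libraries of the groups overlapped for Tssc4 and Nap1l4. The potassium channel gene Kcnq1 was not tested, with 0 counts in XEN and 7 over the ES libraries. Cdkn1c, the imprinted cell cycle inhibitor that lies among them, fell by 1.26, with 1.04 CPM in XEN and 2.48 CPM in ES cells.

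**Figure D4:**
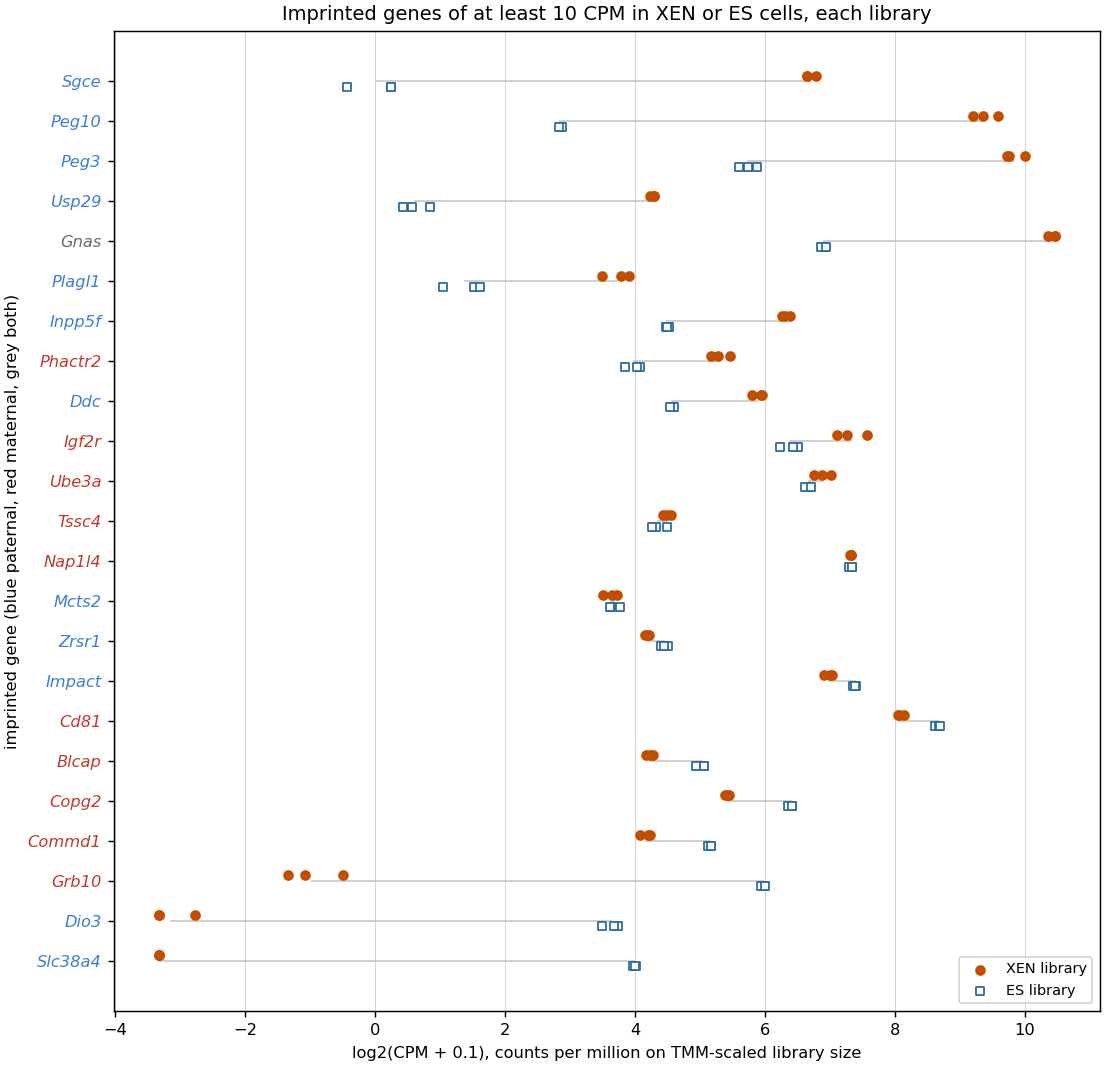
Each point is a library: log2(CPM + 0.1) on the horizontal axis for the 23 imprinted genes that averaged 10 CPM or more in either group, with XEN libraries as filled circles and ES libraries as open squares, ordered by fold change. Sgce, Peg10 and Peg3 stand far to the right in XEN libraries, Grb10, Dio3 and Slc38a4 far to the left, and the libraries of the groups overlap in Tssc4, Nap1l4 and Mcts2.

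Paternally expressed genes that fell included 2 of the Dlk1-Dio3 cluster. Dio3, which inactivates thyroid hormone, had 1 count over the XEN libraries, against 11.2, 13.2 and 12.7 CPM in ES libraries, a ratio of ES to XEN of 779.8 with an interval of 139.6 to 30840 (adjusted p = 5.17e-17). Rtl1, derived from a retrotransposon and needed for placental capillaries, had 2 counts over the XEN libraries, against 1.20, 1.35 and 1.09 CPM in ES libraries, a ratio of 38.1 with an interval of 10.2 to 319.9 (adjusted p = 1.49e-08). Dlk1, a Notch-like transmembrane protein gene, was not tested, with 2 counts over the XEN libraries and 5 over the ES libraries. None of the 3 genes was above 0.05 CPM in any XEN library.

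Slc38a4, a paternally expressed amino acid transporter gene important in placenta, had 0 counts in every XEN library, against 15.5, 16.1 and 15.9 CPM in ES libraries. It was at least 331.5-fold lower in XEN cells (adjusted p = 3.10e-17), the largest bound among the imprinted genes at 0. Its neighbours of the same transporter family, which are not in the list of imprinted genes, rose: Slc38a2 had 738 CPM in XEN and 189 CPM in ES cells, and Slc38a1 641 CPM in XEN and 167 CPM in ES cells. The Slc38a4 window, chr15:97055907-97056206 on the minus strand, holds no match and 5 CpG, and is shown beside that of Grb10 as a CpG-poor promoter of a gene that was off.
Slc38a4: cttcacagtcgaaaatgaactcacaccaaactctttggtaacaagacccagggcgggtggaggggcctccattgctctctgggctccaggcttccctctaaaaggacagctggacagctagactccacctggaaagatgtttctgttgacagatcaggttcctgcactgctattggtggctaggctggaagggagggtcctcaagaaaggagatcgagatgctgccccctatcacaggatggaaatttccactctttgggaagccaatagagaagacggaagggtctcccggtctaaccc

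The Snrpn cluster, the mouse counterpart of the Prader-Willi and Angelman region, changed little in its tested members. Ndn, a MAGE family gene, fell by 0.53 (adjusted p = 0.0219) with 1.29 ± 0.108 CPM in XEN and 1.87 ± 0.147 CPM in ES libraries, and the ubiquitin ligase gene Mkrn3 fell by 0.77 (adjusted p = 1.92e-05) with 3.47 ± 0.397 CPM in XEN and 5.93 ± 0.244 CPM in ES libraries. Both have paternal expression. The call of Ndn was lost without ES A (adjusted p = 0.0799), without XEN B (adjusted p = 0.0819) and with DESeq2 (adjusted p = 0.132). Ube3a, the ubiquitin ligase gene that is maternally expressed in neurons, had 129.7, 108 and 117 CPM in XEN libraries, against 104, 97.6 and 104 CPM in ES libraries. It rose by 0.22 ± 0.08 (adjusted p = 0.00225), but did not pass with upper-quartile scaling, with library size alone or on FPKM, with adjusted p values from 0.163 to 0.344. Magel2, another MAGE family gene, had 1 count over the XEN and 1 over the ES libraries.

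Snrpn itself, a splicing protein gene with paternal expression, could not be read from its own row. It had 0 counts in XEN libraries and 5, 0 and 6 counts in ES libraries, while Snurf, which overlaps it in RefSeq, had 3.92 CPM in XEN and 48.6 CPM in ES cells. How reads of the shared transcripts were divided between these rows was not tested. With the counts of Snrpn and Snurf summed, a choice made after the values were seen, the pair had 3.34, 4.10 and 4.32 CPM in XEN libraries, against 47.15, 48.2 and 51.0 CPM in ES libraries. The sum fell by 3.64 (adjusted p = 6.23e-20), and the XEN libraries lay far below the ES libraries.

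The remaining genes lie alone or in pairs, and most of them fell. Inpp5f, an inositol phosphatase gene with a paternally expressed transcript form in brain, had 83.85, 79.1 and 76.9 CPM in XEN libraries, against 22.8, 22.2 and 22.39 CPM in ES libraries, and rose by 1.83 ± 0.04 (adjusted p = 1.23e-18). Impact, a paternally expressed inhibitor of the kinase GCN2, had 127, 120.4 and 130.2 CPM in XEN libraries, against 168, 163 and 167 CPM in ES libraries, and fell by 0.40 (adjusted p = 8.36e-09). Zdbf2, a paternally expressed zinc finger gene, fell by 1.85, with 1.31 ± 0.295 CPM in XEN and 4.73 ± 0.260 CPM in ES libraries (adjusted p = 4.35e-09). L3mbtl1, a chromatin reader gene, had 1 count over the XEN libraries and 0.932 ± 0.178 CPM in ES libraries, a ratio of ES to XEN of 58.55 with an interval of 10.1 to 2349 (adjusted p = 1.24e-07).

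In 3 places a paternally expressed gene lies inside another gene. Zrsr1, a splicing factor retrogene within Commd1, had 18.2, 17.7 and 18.4 CPM in XEN libraries, against 21.0, 22.6 and 21.7 CPM in ES libraries, and fell by 0.27 (adjusted p = 0.000986). Commd1, a copper transport regulator gene, had 18.2, 18.6 and 16.7 CPM in XEN libraries, against 34.8, 35.9 and 35.95 CPM in ES libraries, and fell by 0.99 (adjusted p = 3.25e-12). Blcap had 19.2, 18.7 and 17.9 CPM in XEN libraries, against 33.4, 30.7 and 33.2 CPM in ES libraries, and fell by 0.80 (adjusted p = 1.82e-10), and Nnat, a small membrane protein gene inside it, was not tested at 15 counts over the XEN and 23 over the ES libraries. Mcts2, a retrogene inside H13, had 12.5, 11.3 and 13.2 CPM in XEN libraries, against 12.3, 12.1 and 13.6 CPM in ES libraries, and did not pass (adjusted p = 0.661), while H13 rose by 1.91. Mcts2 is a copy of Mcts1, and whether their reads were divided correctly was not tested. The strand of the counting is not given in the sources used here, so reads of a gene and of one inside it on the other strand cannot be told apart.

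**Figure D5:**
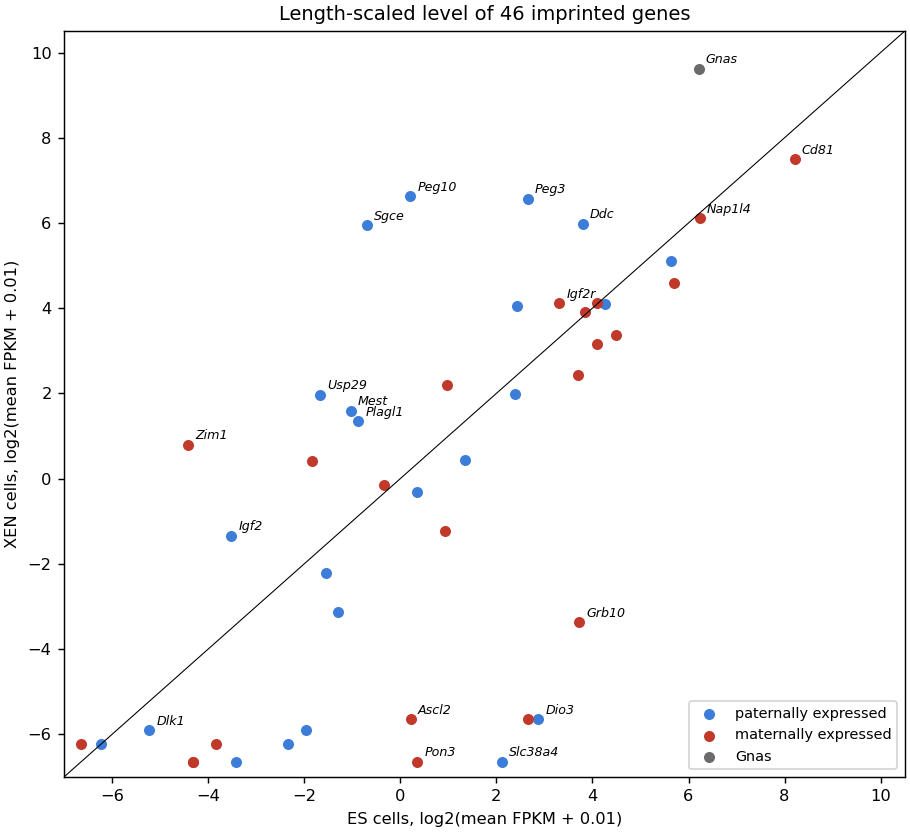
Each point is an imprinted gene, with its mean level over 3 libraries as log2(FPKM + 0.01) in ES cells on the horizontal and in XEN cells on the vertical axis, coloured by allele; the line marks equal levels. Gnas and Cd81 have the highest levels in XEN cells at 787 and 181 FPKM, and the genes along the lower edge are listed at or near 0 there.

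Promoter windows of RefSeq were matched for 40 of the 46 genes, with 62 windows. The letters TGCCGC or GCGGCA occurred in 24.2% of these windows and in 11.6% of all 32851 windows. Imprinted genes had more CpG, with a median of 16 in a window and 7 over all windows. Among windows with at least 16 CpG, the letters occurred in 34.4% of 32 windows of imprinted genes and in 25.7% of all 10841. Counted by gene, 14 of the 40 imprinted genes had a match in any window, and 13.1% of all 27025 genes. Among genes with a window of at least 16 CpG, 38.5% of 26 imprinted genes and 26.95% of all 9588 had a match in such a window. Among imprinted genes called higher in XEN cells 5 of 14 had a match in any window, and among those called lower 5 of 17. A match of letters is a description of the sequence and does not show that ZFP57 binds there, and no match says only that these letters are not in that window.

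Of 15 tested genes that keep or set imprints, 13 fell and 2 rose, where 46.7% of all tested genes were called lower and 42.0% higher. Against 2-fold, 5 of the 15 passed as lower and 1 as higher. Zfp57 itself fell by 3.31, with 43.5 CPM in XEN and 431 CPM in ES cells, Dnmt3l, a cofactor of DNA methylation in germ cells, fell by 3.31, and Zfp42, a pluripotency factor that also acts at imprinted loci, fell by 11.02. The methyltransferase genes Dnmt3b and Dnmt3a rose by 2.13 and 0.45. Whether their levels bear on those of the imprinted genes was not tested.

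Imprinted genes outside the 47 also went both ways. Of 35 listed, 25 had a row and 14 were tested, of which 4 rose and 9 fell, and 92.9% were called where 88.7% of all tested genes were. Sfmbt2, a polycomb group gene, rose by 2.92, with 216 CPM in XEN and 28.5 CPM in ES cells, H13 rose by 1.91 and Bcl2l1, which blocks apoptosis, by 1.84. Gab1, a signalling adaptor gene, fell by 3.98, with 17.7 CPM in XEN and 278 CPM in ES cells, Qpct fell by 4.32 and Ampd3, an AMP deaminase gene, by 8.61. There are no values here for the non-coding RNAs H19 and Meg3.

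Several of the genes are imprinted in placenta or brain, so markers of such cells were read too. The 12 trophoblast markers summed to 14.6 to 17.5 CPM in XEN libraries and 82.2 to 85.9 CPM in ES libraries. Hand1, Prl3d1 and Tpbpa, 3 of them, had no row for either group and were set to 0. The tested ones went both ways, 3 higher and 3 lower in XEN cells. Most of the ES level was Tfap2c at 58.7 CPM. Plac1 had 6.55 CPM in XEN cells and 0 counts in ES cells, and Gata3 and Cdx2 rose at 1.02 and 0.840 CPM in XEN cells, against 0.0896 and 0.148 CPM in ES cells. Besides Tfap2c, Eomes and Krt7 fell, at 7.35 and 0.588 CPM in XEN cells, against 22.2 and 3.02 CPM in ES cells. The 10 neural markers summed to 18.3 to 19.96 CPM in XEN libraries and 377 to 390.1 CPM in ES libraries, of which Stmn2 made up 281 CPM. The 10 fibroblast or feeder markers summed to 7.45 to 9.56 CPM in XEN and 6.45 to 6.65 CPM in ES libraries. The 8 hepatocyte markers summed to 93.65 to 110.1 CPM in XEN and 2.95 to 3.88 CPM in ES libraries. Nearly all of the XEN sum came from Hnf4a and Ttr, which extraembryonic endoderm also expresses. In ES cells Ahsg had 1.63 CPM, Hnf4a 1.40 CPM and Ttr 0.342 CPM, and Ahsg was lower in XEN cells, at 0.525 CPM. The part of these markers in the results was not tested.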

How the data were processed

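The authors deposited a table per library with expected counts and FPKM per gene, in RSEM format per the file headers; expected counts are estimates and not all whole. Per the submitters' processing notes, Bowtie2, RSEM and DESeq2 and the mm9 build were used, with no versions, roles or order. Transcript length in bases is another column of the deposited tables. Where a table did not list a gene, its value was set to 0.

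Expected counts were rounded. Genes were kept with filterByExpr, libraries scaled by TMM (factors 0.951 to 1.05), and XEN compared with ES by the edgeR 4.0.16 quasi-likelihood test with robust dispersion (R 4.3.3; no covariate), with Benjamini-Hochberg adjustment at 0.05 over 13581 genes. CPM are on the TMM scale. Errors of fold changes are SEs of the difference in mean log2 CPM with a prior count of 2, not of the fitted fold change itself. No pair of libraries of a group agreed within sampling noise (chi-square over degrees of freedom at least 2.32).

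The members, alleles and lists were chosen with earlier results of these data known, and alleles come from textbook knowledge. Every member is named; those of at least 10 CPM in either group have values per library, and so do some others. Other lists name up to 3 called genes a direction with at least 5 CPM in either group, and for the partners also Igf1r and the Igf2bp genes; Cdkn1c and the markers with values were named outside this rule, after their values were seen. Flanking genes are the 2 nearest tested coding genes on each side by RefSeq order on GRCm38.p6, chosen after the values were seen. Simulated data with known changes were used to test the fit. The deposited coordinates' build, mm9, has no reference here, so only the promoter windows have positions.

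The alternatives tried comprised scaling by RLE, by upper quartile or by library size alone, 2 other filters on low counts, a replicate block, leaving out each library, DESeq2 1.42.0, limma-voom and limma-trend on log2(FPKM + 1) (limma 3.58.1), and, for counts of members alone, members imprinted in most embryonic tissues only. Summing Snrpn and Snurf was added after the data were seen.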

Additional observations from a re-analysis of the deposited data

How the results depend on the processing

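Under 16 alternatives, 1 of them (Snrpn and Snurf summed) chosen after seeing the data, the 38 tested imprinted genes gave 604 values, of which 584 kept their direction and their side of the threshold. Calls were lost in Ube3a with upper-quartile scaling (0.07), library size alone (0.08) and FPKM (0.06), in Ppp1r9a with upper-quartile scaling (0.25) and FPKM (0.09), and in Ndn with DESeq2 (-0.54), without ES A (-0.47) and without XEN B (-0.46). The 3 uncalled genes moved too. Tssc4 changed sign with upper-quartile scaling (-0.0096) and passed without ES replicate C (0.20). Nap1l4 passed with upper-quartile scaling (-0.15), library size alone (-0.14) and FPKM (-0.13), and changed sign with no filter (0.0092) and without single libraries (-0.018 to 0.003). Mcts2 passed on FPKM (-0.15) and ranged from -0.0885 to 0.0181 without single libraries. Of 638 values of 40 other named genes, 626 stayed. Igf2bp3 turned negative with upper-quartile scaling (-0.1364), library size alone (-0.1227), FPKM (-0.1189), genes of at least 1 CPM (-0.0068) and without single libraries (-0.0233 to 0.0332). Fignl1 did so with upper-quartile scaling (-0.0848), library size alone (-0.0712) and FPKM (-0.0658), and Ltv1 passed under these 3.

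Over all alternatives on the same members, 14 to 17 were higher and 16 to 23 lower (16 and 19 as reported), 4 to 7 of the maternal ones higher (6), and, past 2-fold, 12 to 13 were higher and 7 to 13 lower (13 and 10). Without single libraries 16 to 17 were higher and 18 to 19 lower. Restricted to members imprinted in most embryonic tissues, 22 were tested, of which 9 were higher and 12 lower. Of the paternal ones among them 7 were higher and 8 lower, and of the maternal ones 2 and 4. Of these 22, 95.5% were called, against 92.1% of the 38. Their counts are over fewer genes and do not compare directly with 16 and 19. Upper-quartile scaling and library size alone moved the median of all genes by -0.15 and -0.13; the median over imprinted genes was -0.30 and -0.29 under them, and -0.0395 for genes of at least 1 CPM. The letters A, B and C hardly paired the libraries: deviations of same-letter libraries correlated at 0.0327, 0.0076 and 0.0199. Those of different-letter libraries correlated at -0.0226 to 0.002, all lower but also near 0. With the letters as a replicate block 12000 genes were called, against 12044 without, and 16 imprinted genes were higher and 19 lower, as without it. The causes of these shifts were not tested.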

Other observations

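Genes beside the 47 were called about as often. Of 72 tested genes nearest to a member or cluster, 26 were higher and 37 lower in XEN cells. In all, 87.5% were called, where 88.7% of all tested genes were. The 72 are not all unimprinted: Atp10a, Peg12, H13 and Bcl2l1 among them are in the list of imprinted genes outside the 47. Beside Zdbf2, Adam23 had 0.0623 CPM in XEN and 57.7 CPM in ES cells. The coefficient of variation between libraries had a median of 4.98% over 20 imprinted genes of at least 10 CPM in XEN cells, and 4.204% over 8729 such genes in all, and of 2.97% over 19 imprinted genes in ES cells, and 3.36% over 9023 genes.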
